A study of Mus musculus with 24 samples.

Results

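The lysosomal gene set examined here comprised 41 genes. They encode the transcription factors TFEB and TFE3, lysosomal membrane proteins, lipid-handling proteins, enzyme activators, proteases, glycosidases, sulfatases and parts of the proton pump. Members were matched by gene symbol, without use of their measured values in the match, but were chosen with earlier results of these data known. Of these members, 41 of the 41 were present among the 14293 genes of the expression table. Messenger RNA was sequenced from 24 mouse livers described as NASH (nonalcoholic steatohepatitis, fatty liver with inflammation and scarring), with 8 livers treated with vutiglabridin, 8 treated with semaglutide and 8 given vehicle. Vutiglabridin is an analog of glabridin from licorice, and the title of the series describes a paraoxonase-2 agonist that acts through autophagy. Semaglutide activates the receptor of the incretin hormone GLP-1 and is used against diabetes and obesity. All 3 groups are diseased livers and no healthy liver was analysed here. The labels give the treatment and nothing of the strain, disease model, diet, age, sex, dose, duration or source animal. Nothing states that the livers of a group came from separate animals, so the p-values below reflect the variation among these samples, and that variation may be technical.

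Lysosomes are the acidic compartments in which cells digest proteins, glycans, nucleic acids and lipids that arrive by endocytosis or autophagy. The V-ATPase pumps protons into them, and their hydrolases need that acidity. TFEB and TFE3 bind the CLEAR element, an E-box found in the promoters of many lysosomal genes, and the kinase complex mTORC1 keeps both factors in the cytoplasm while nutrients are plentiful. In liver, lysosomes of hepatocytes break down lipid droplets and lipoprotein cholesterol, and liver macrophages carry many of the same hydrolases.

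The E-box and its CLEAR-like extensions were counted in the promoters of the set, because these letters mark where TFEB and TFE3 can bind. Promoter sequences from RefSeq (GRCm38.p6, 250 bases before to 50 bases after the start) were found for 35 of the 41 genes. The E-box CACGTG, which is its own reverse complement, was present in 14 of the 35 (40%), against 11.1% of the 11196 promoters of table genes and 8.09% of all 27025 promoters. With one flanking base, TCACGTG on either strand was present in 12 of 35 members (34.3%), against 6.59% of table genes and 4.29% of all promoters. The longer palindrome TCACGTGA was present in 6 of 35 (17.1%), against 2.01% and 1.12%. The 3 motifs are nested, so each longer match is also counted among the shorter ones. The 12 genes with TCACGTG were Lamp1, Mcoln1, Ctsa, Ctsd, Gaa, Gla, Glb1, Naglu, Sgsh, Arsa, Atp6v1a and Atp6v0d1. A match is a description of the letters and not evidence of binding.

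One stretch follows for each of the 6 genes of the 12 that passed the test in at least 1 comparison as the table stands. Each is written 5′ to 3′ on the gene's own strand, and capitals mark the E-box with its flanking T or A. Gaa lies on the plus strand at chr11:119267811-119267840, Mcoln1 on the plus strand at chr8:3500462-3500491 and Lamp1 on the plus strand at chr8:13159087-13159160. Ctsd lies on the minus strand at chr7:142387908-142387937, Gla on the minus strand at chrX:134601215-134601244 and Atp6v1a on the minus strand at chr16:44139373-44139402. The Lamp1 stretch of 74 bases holds 4 boxes. Mcoln1, Ctsd and Gla each held a further such box in the promoter that is not printed.
Gaa: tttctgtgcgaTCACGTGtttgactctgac
Mcoln1: aggcgccccgcTCACGTGAccgcggcgcat
Lamp1: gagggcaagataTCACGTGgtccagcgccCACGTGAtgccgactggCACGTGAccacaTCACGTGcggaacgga
Ctsd: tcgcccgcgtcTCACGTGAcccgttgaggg
Gla: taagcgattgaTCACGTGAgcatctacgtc
Atp6v1a: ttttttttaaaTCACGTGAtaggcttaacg

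The set spanned a wide range of expression, and all 41 genes passed the filter on low values (at least 0.5 FPKM in at least 8 samples; FPKM are fragments corrected for gene length and library size). Lamp1, a major glycoprotein of the lysosomal membrane, was the most abundant member, with a median of 342 FPKM in vutiglabridin, 279.8 FPKM in semaglutide and 360 FPKM in vehicle livers. Psap and Ctsz followed it in vehicle livers, at medians of 333 and 203 FPKM. Tfeb itself was the least abundant, with medians of 2.00 FPKM in vutiglabridin, 2.04 FPKM in semaglutide and 1.90 FPKM in vehicle livers. In the order of the vehicle medians, the ranges of 33 of the 40 neighbouring pairs overlapped, so their order is not firm. The coefficient of variation between livers had a median over the 41 genes of 10.8% in vutiglabridin, 10.4% in semaglutide and 8.49% in vehicle livers, and the most variable value was that of Tfeb in vehicle livers, at 25.6%.

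**Figure D1:**
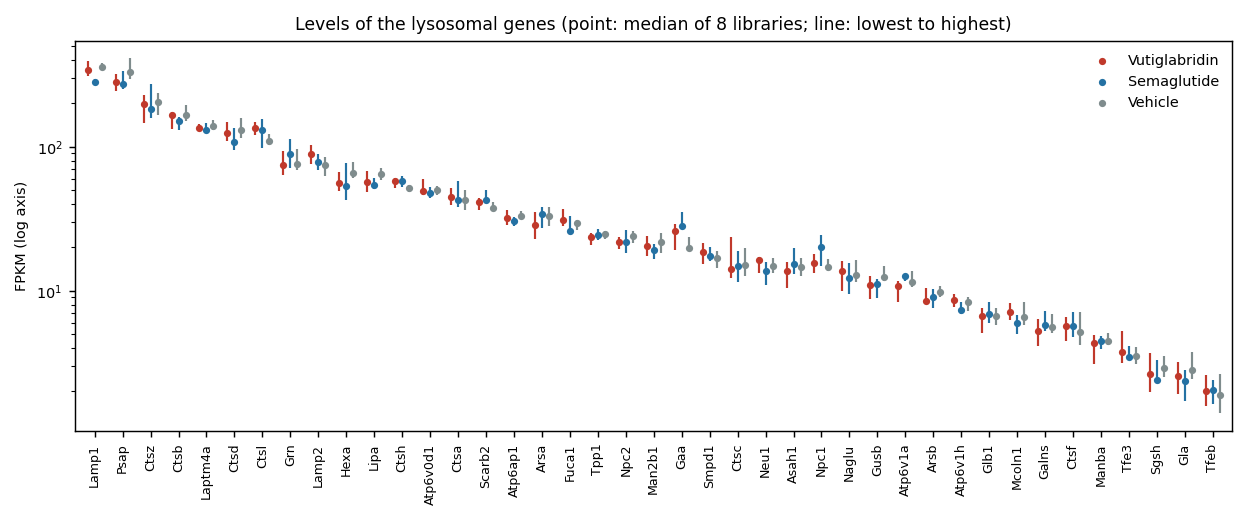
Level of each of the 41 lysosomal genes in FPKM (log axis), ordered by the median in vehicle livers; points are medians of 8 livers and lines run from the lowest to the highest liver. Medians run from 342 FPKM (vutiglabridin), 279.8 FPKM (semaglutide) and 360 FPKM (vehicle) for Lamp1 at the left down to about 2 FPKM for Tfeb at the right, and in most genes the lines of the 3 groups overlap.

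Libraries were not equal. The steps between low FPKM values implied 5.98 to 15.2 M (mega) fragments in vutiglabridin, 9.32 to 12.4 M in semaglutide and 12.0 to 19.9 M in vehicle libraries, with vutiglabridin replicate 7 the shallowest (1413 genes at 0). Summed FPKM averaged 368614 ± 14580 in vutiglabridin, 343428 ± 14751 in semaglutide and 330352 ± 14299 in vehicle libraries (SD, n = 8 each). All 114344 values of the semaglutide columns end in a space and none of the other columns do, so a difference in handling cannot be told apart from the drug. In whole-liver RNA, fewer cells of a type and less RNA per cell cannot be told apart either.

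Against vehicle, 6 lysosomal genes passed the test under vutiglabridin and 15 under semaglutide, 11 of them lower, and these counts depend on how the libraries are scaled. Over all genes 15.3% passed under vutiglabridin and 27.0% under semaglutide, and the difference between the counts was not tested. Under vutiglabridin 4 of 41 genes (9.76%) rose and 2 (4.88%) fell, while 6.53% of all 11562 genes tested rose and 8.78% fell (limma, Benjamini-Hochberg adjusted p under 0.05). Under semaglutide 4 of 41 (9.76%) rose and 11 (26.8%) fell, against 14.3% and 12.7% of all genes. Both comparisons share the vehicle livers. The median log2 change of the set was −0.05 under each drug, beside medians of 0.01 under vutiglabridin and −0.01 under semaglutide for all genes. The largest change that passed was 0.28 under vutiglabridin and 0.51 under semaglutide, both for Gaa. Set directly against each other, 5 genes (12.2%) were higher and 3 (7.32%) lower in vutiglabridin than in semaglutide livers, against 11.9% and 12.6% of all genes.

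The share of the set called higher was above the background under vutiglabridin, below it under semaglutide and near it between the drugs. These differences were not tested, and the number of rising genes is not read as a result about the set. The share of falling genes under semaglutide was above the background, but the count depended on single libraries. It ranged from 5 to 13 as each library was left out, and was 5 without semaglutide replicate 3, 4 or 8 or vehicle replicate 7, 6 without vehicle replicate 2, and 7 without vehicle replicate 1 or 3. Beside the 5 genes of the set, 1232, 1291, 1217 and 1244 of all 11562 genes fell in that order, against 1474 as the table stands. Without semaglutide replicate 5 the set had 13 lower and all genes 1577. Under vutiglabridin the number lower was 1 without vutiglabridin replicate 7 or 8 or vehicle replicate 1, 2 or 7. Of all genes 819, 826, 864, 844 and 755 fell in that order, against 1015 as the table stands. As the table stands, 21 genes passed in at least 1 of the 3 comparisons and 20 in none. Gaa and Ctsh were higher and Psap and Gusb lower than vehicle under both drugs.

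**Figure D2:**
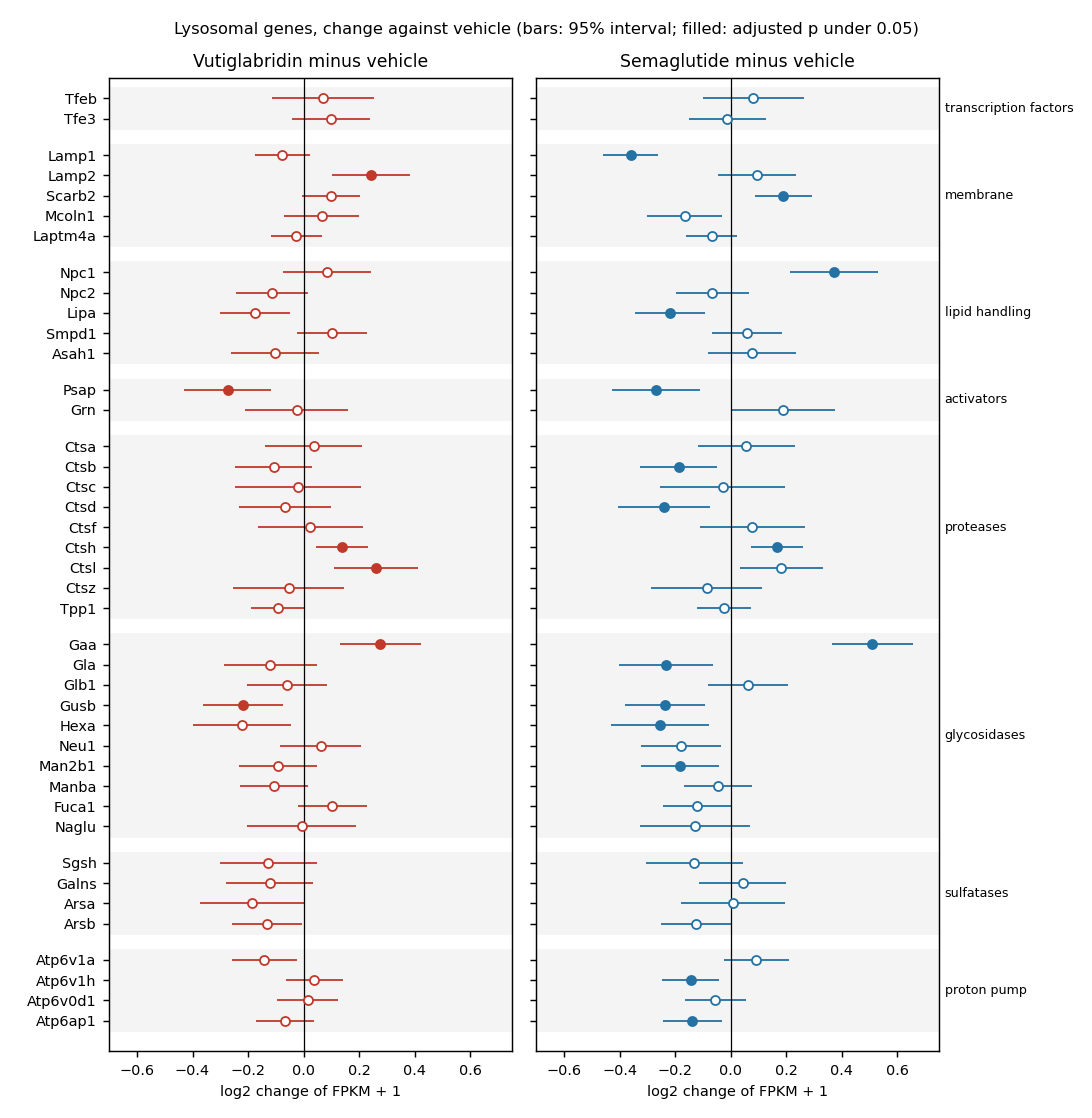
Change of each lysosomal gene against vehicle in log2(FPKM + 1), for vutiglabridin (left) and semaglutide (right), grouped by role; bars are 95% intervals and filled points passed the adjusted p of 0.05. Under vutiglabridin 6 points are filled and under semaglutide 15, of which 11 lie left of 0, and Gaa at 0.51 is the farthest from 0.

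The transcription factors came first in the order of roles, and neither Tfeb nor Tfe3 passed in any comparison. Tfeb RNA ranged from 1.59 to 2.60 FPKM (median 2.00) in vutiglabridin, from 1.64 to 2.39 (median 2.04) in semaglutide and from 1.41 to 2.66 (median 1.90) in vehicle livers. The 3 ranges lay almost on top of each other. Its log2 change was 0.07 ± 0.09 (SE; 95% interval −0.11 to 0.25, adjusted p = 0.658) under vutiglabridin and 0.08 ± 0.09 (−0.10 to 0.26, adjusted p = 0.537) under semaglutide. Tfe3 had lowest, median and highest values of 3.17, 3.78 and 5.28 FPKM in vutiglabridin, 3.29, 3.46 and 4.16 in semaglutide and 3.11, 3.52 and 4.06 in vehicle livers, and the groups overlapped. Its log2 change was 0.10 ± 0.07 (−0.04 to 0.24, adjusted p = 0.361) under vutiglabridin and −0.01 ± 0.07 (−0.15 to 0.13, adjusted p = 0.924) under semaglutide. These are RNA levels. The activity of both factors is set mainly by where the protein sits in the cell, which was not measured.

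Among the 5 membrane proteins, Lamp1 fell under semaglutide and Lamp2 rose under vutiglabridin. Lamp1 had lowest, median and highest values of 308, 342 and 394 FPKM in vutiglabridin, 277, 279.8 and 295 in semaglutide and 352, 360 and 383 in vehicle livers. Every semaglutide liver lay below every liver of the other groups. The log2 change was −0.36 ± 0.05 under semaglutide (adjusted p = 6.64e-06) and −0.08 ± 0.05 under vutiglabridin (adjusted p = 0.310), and vutiglabridin livers were higher than semaglutide livers by 0.28 ± 0.05 (adjusted p = 0.000136). The difference between the drugs was 0.10 (adjusted p = 0.213) after quantile normalization, which also called Lamp1 lower under vutiglabridin (−0.32, adjusted p = 0.000426). Rescaling all libraries to equal totals called Lamp1 lower under vutiglabridin too (−0.23, adjusted p = 0.00159). The gene lies at chr8:13159161-13175338 (plus strand, GENCODE M21 on GRCm38).

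Lamp2, whose product forms the receptor of chaperone-mediated autophagy in one splice form, had lowest, median and highest values of 75.5, 89.3 and 103 FPKM in vutiglabridin, 69.4, 77.8 and 88.4 in semaglutide and 62.4, 74.6 and 85.2 in vehicle livers. In 5 of 8 vutiglabridin livers it was above every vehicle liver. The fitted log2 change was 0.24 ± 0.07 under vutiglabridin (adjusted p = 0.0166) and 0.09 ± 0.07 under semaglutide (adjusted p = 0.334). Lamp2 was not separable between the drugs as the table stands (0.15 ± 0.07, adjusted p = 0.111), while removal of each library's trends with GC content and exon length gave 0.34 (adjusted p = 2.16e-05). FPKM do not separate the splice forms of Lamp2.

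Scarb2 carries β-glucocerebrosidase to the lysosome. It had lowest, median and highest values of 36.2, 41.5 and 44.4 FPKM in vutiglabridin, 40.99, 42.5 and 50.4 in semaglutide and 37.1, 37.5 and 41.04 in vehicle livers. In 7 of 8 semaglutide livers it was above every vehicle liver, and the log2 change was 0.19 ± 0.05 under semaglutide (adjusted p = 0.00668) and 0.10 ± 0.05 under vutiglabridin (adjusted p = 0.203). Mcoln1 encodes the calcium channel TRPML1 that acts upstream of TFEB. It had lowest, median and highest values of 6.31, 7.15 and 8.23 FPKM in vutiglabridin, 4.98, 5.97 and 6.76 in semaglutide and 5.79, 6.63 and 8.41 in vehicle livers. All groups overlapped, and only the comparison of the drugs passed (0.23 ± 0.06, adjusted p = 0.0111), with −0.17 ± 0.06 for semaglutide (adjusted p = 0.0592) and 0.06 ± 0.06 for vutiglabridin (adjusted p = 0.561) against vehicle. The semaglutide value of Mcoln1 passed with equal library totals (−0.22, adjusted p = 0.0223), after quantile normalization (−0.17, adjusted p = 0.0485) and without GC and length trends (−0.18, adjusted p = 0.0327). The fifth membrane gene, Laptm4a, passed in no comparison as the table stands, with medians of 136 FPKM in vutiglabridin, 130.1 in semaglutide and 138 in vehicle livers. Under vutiglabridin it was lower with equal totals (−0.18, adjusted p = 0.00445) and after quantile normalization (−0.21, adjusted p = 0.00311). Under semaglutide it was lower with equal totals (−0.12, adjusted p = 0.0390).

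**Figure D3:**
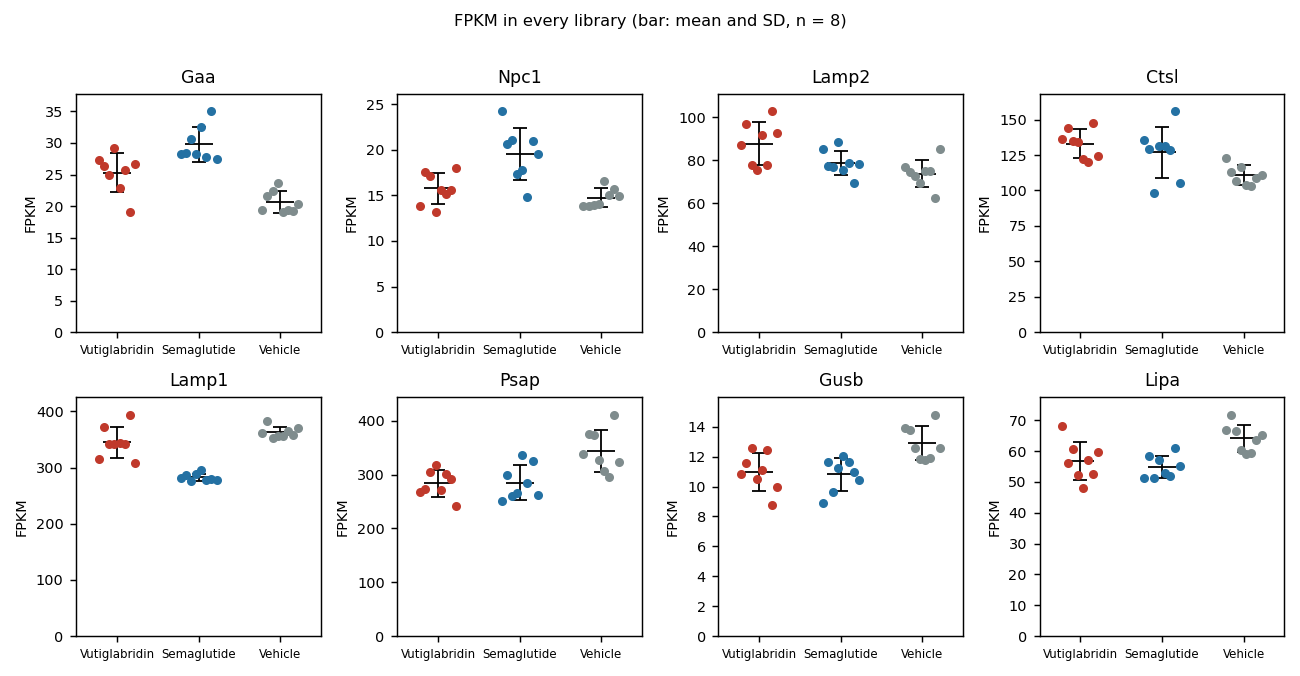
FPKM of 8 lysosomal genes in each of the 24 livers, by group; points are livers and bars are the mean and SD (n = 8). All 8 semaglutide points lie above the vehicle points for Gaa and below them for Lamp1, while Psap and Gusb sit lower in both drug groups with some overlap.

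Of the 5 genes of lipid handling, Npc1 rose and Lipa fell under semaglutide, and none passed under vutiglabridin as the table stands. Npc1, which moves cholesterol out of the lysosome, had lowest, median and highest values of 13.2, 15.6 and 18 FPKM in vutiglabridin, 14.8, 20.1 and 24.2 in semaglutide and 13.8, 14.5 and 16.6 in vehicle livers. In 7 of 8 semaglutide livers it was above every vehicle liver. It had a log2 change of 0.37 ± 0.08 under semaglutide (adjusted p = 0.000836) and 0.09 ± 0.08 under vutiglabridin (adjusted p = 0.507), and vutiglabridin was lower than semaglutide by a log2 difference of −0.29 ± 0.08 (adjusted p = 0.00782). Without the GC and length trends that last difference was −0.16 (adjusted p = 0.0922).

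Lipa encodes lysosomal acid lipase, which hydrolyses cholesteryl esters and triglycerides. Its lowest, median and highest values were 48.2, 56.6 and 68.1 FPKM in vutiglabridin, 51.2, 54.1 and 60.9 in semaglutide and 59.0, 64.4 and 71.7 in vehicle livers. In 7 of 8 semaglutide livers it was below every vehicle liver, and in vutiglabridin this held for 5 of 8. The log2 change was −0.22 ± 0.06 under semaglutide (adjusted p = 0.00922) and −0.17 ± 0.06 under vutiglabridin (adjusted p = 0.0540), and the drugs did not differ past the threshold (0.05 ± 0.06, 95% interval −0.08 to 0.17, adjusted p = 0.622). The vutiglabridin change of Lipa passed with equal totals (−0.33, adjusted p = 0.00113), after quantile normalization (−0.29, adjusted p = 0.00438) and without GC and length trends (−0.20, adjusted p = 0.0485). Npc2, which hands cholesterol to Npc1, and the sphingolipid hydrolases Smpd1 and Asah1 passed nowhere as the table stands. With equal totals Npc2 (−0.27, adjusted p = 0.00569) and Asah1 (−0.25, adjusted p = 0.0460) were also lower under vutiglabridin. Npc2 averaged 21.9 ± 1.44 FPKM in vutiglabridin, 22.8 ± 2.81 in semaglutide and 23.8 ± 1.5 in vehicle livers (SD, n = 8 each).

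Psap, the precursor of the 4 saposins that help lysosomal enzymes reach sphingolipids, fell under both drugs to a like extent. Its lowest, median and highest values were 242, 282 and 318 FPKM in vutiglabridin, 251, 275 and 336 in semaglutide and 296, 333 and 411 in vehicle livers. In each drug group 5 of 8 livers lay below every vehicle liver. On the log2 scale the change was −0.27 ± 0.08 under vutiglabridin (adjusted p = 0.0157) and −0.27 ± 0.08 under semaglutide (adjusted p = 0.0104), and between the drugs it was −0.01 (95% interval −0.16 to 0.15). Psap was the one vutiglabridin call of 6 that passed under every alternative tried. Grn, which encodes progranulin, a protein that binds prosaposin, did not pass as the table stands. It averaged 77.02 ± 10.5 FPKM in vutiglabridin, 89.7 ± 13.2 in semaglutide and 78.2 ± 8.84 in vehicle livers, and its semaglutide change was 0.27 (adjusted p = 0.0106) once GC and length trends were removed. The log2 difference of vutiglabridin from semaglutide for Grn was −0.21 ± 0.09 (adjusted p = 0.0823), and it passed with equal totals (adjusted p = 0.0103), after quantile normalization (adjusted p = 0.00997) and without the trends (adjusted p = 0.0144).

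The 9 proteases moved in both directions. Ctsl and Ctsh rose under vutiglabridin, and Ctsh rose and Ctsb and Ctsd fell under semaglutide. Ctsa, Ctsc, Ctsf, Ctsz and Tpp1 passed nowhere as the table stands. With equal totals Tpp1 was lower in vutiglabridin than in vehicle (−0.24, adjusted p = 0.00230) and semaglutide livers (−0.17, adjusted p = 0.0282). Ctsl, the cysteine endopeptidase cathepsin L, had lowest, median and highest values of 120.0, 135 and 148 FPKM in vutiglabridin, 97.9, 130.3 and 156 in semaglutide and 103, 109.9 and 123 in vehicle livers. In 6 of 8 livers of each drug group it was above every vehicle liver, and the log2 change was 0.26 ± 0.07 under vutiglabridin (adjusted p = 0.0175) and 0.18 ± 0.07 under semaglutide (adjusted p = 0.0658). Ctsh, the aminopeptidase cathepsin H, had lowest, median and highest values of 52.1, 57.5 and 60.5 FPKM in vutiglabridin, 52.6, 58.3 and 62.9 in semaglutide and 48.9, 51.5 and 54.4 in vehicle livers. It too was above every vehicle liver in 6 of 8 livers of each drug group. The fitted log2 change was 0.14 ± 0.05 under vutiglabridin (adjusted p = 0.0406) and 0.17 ± 0.05 under semaglutide (adjusted p = 0.00863). The vutiglabridin call of Ctsh ended when vutiglabridin replicate 1, 2, 4, 7 or 8 or vehicle replicate 1, 3, 5, 6, 7 or 8 was left out, with adjusted p of 0.0504 to 0.0854.

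Ctsb encodes cathepsin B, a cysteine protease. Its lowest, median and highest values were 133, 166 and 173 FPKM in vutiglabridin, 131, 151 and 161 in semaglutide and 152, 168 and 196 in vehicle livers. Of the semaglutide livers 4 of 8 lay below every vehicle liver. The log2 change was −0.19 ± 0.07 under semaglutide (adjusted p = 0.0399) and −0.11 ± 0.07 under vutiglabridin (adjusted p = 0.310). The aspartic protease cathepsin D, from Ctsd, had lowest, median and highest values of 110.2, 124 and 149 FPKM in vutiglabridin, 94.8, 107 and 135 in semaglutide and 115, 130.3 and 159 in vehicle livers. The groups overlapped, with 5 of 8 semaglutide livers below every vehicle liver. Its log2 change against vehicle was −0.24 ± 0.08 under semaglutide (adjusted p = 0.0274) and −0.07 ± 0.08 under vutiglabridin (adjusted p = 0.635). Without the GC and length trends the semaglutide change of Ctsd was −0.14 (adjusted p = 0.0755). The vutiglabridin change of Ctsb passed with equal totals (−0.26, adjusted p = 0.00797) and after quantile normalization (−0.28, adjusted p = 0.00880). That of Ctsd passed under the same settings (−0.22, adjusted p = 0.0418, and −0.24, adjusted p = 0.0410). Neither semaglutide call was robust to single libraries. The semaglutide call of Ctsb ended without semaglutide replicate 1, 3, 4, 6 or 8 or vehicle replicate 1, 2, 3 or 7 (adjusted p of 0.0512 to 0.0899). That of Ctsd ended without semaglutide replicate 1, 3, 4 or 8 or vehicle replicate 2 or 7 (adjusted p of 0.0508 to 0.0653).

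Glycosidases held the largest rise of the set and 4 of the 11 falls under semaglutide. Gaa, the acid α-glucosidase that degrades glycogen in lysosomes, had lowest, median and highest values of 19.1, 26.0 and 29.3 FPKM in vutiglabridin, 27.4, 28.3 and 35.0 in semaglutide and 19.0, 19.8 and 23.7 in vehicle livers. All 8 semaglutide livers and 6 of 8 vutiglabridin livers lay above every vehicle liver. Mean FPKM were 1.45 times those of vehicle under semaglutide and 1.23 times under vutiglabridin. On the log2 scale the change was 0.51 ± 0.07 under semaglutide (adjusted p = 1.11e-05) and 0.28 ± 0.07 under vutiglabridin (adjusted p = 0.00959), and vutiglabridin was lower than semaglutide by a log2 difference of −0.23 ± 0.07 (adjusted p = 0.0180). Gaa lies at chr11:119267887-119285454 (plus strand, GENCODE M21 on GRCm38).

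Gusb, the β-glucuronidase of glycosaminoglycan breakdown, went the other way. Its lowest, median and highest values were 8.79, 11.0 and 12.6 FPKM in vutiglabridin, 8.89, 11.1 and 12.1 in semaglutide and 11.8, 12.6 and 14.8 in vehicle livers. Below every vehicle liver were 6 of 8 vutiglabridin and 7 of 8 semaglutide livers. The log2 change was −0.22 ± 0.07 under vutiglabridin (adjusted p = 0.0329) and −0.24 ± 0.07 under semaglutide (adjusted p = 0.0130). The vutiglabridin call ended without vutiglabridin replicate 1, 7 or 8 or vehicle replicate 1, 2 or 7 (adjusted p of 0.0534 to 0.0768), and the semaglutide change was −0.17 (adjusted p = 0.0556) without the GC and length trends.

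The remaining semaglutide calls among glycosidases were falls of Hexa, Gla and Man2b1. Hexa encodes the α subunit of β-hexosaminidase, and it had lowest, median and highest values of 49.6, 55.7 and 67.3 FPKM in vutiglabridin, 43.0, 53.8 and 76.8 in semaglutide and 60.7, 65.3 and 78.0 in vehicle livers. Its log2 change was −0.25 ± 0.09 under semaglutide (adjusted p = 0.0291) and −0.22 ± 0.09 under vutiglabridin (adjusted p = 0.0798). In both drug groups 6 of 8 livers lay below every vehicle liver, and the highest semaglutide liver stood near the top of the vehicle range. Without the GC and length trends the semaglutide change was −0.15 (adjusted p = 0.0733). The vutiglabridin change of Hexa passed with equal totals (−0.38, adjusted p = 0.00308), after quantile normalization (−0.34, adjusted p = 0.00743), with only these 2 groups fitted (adjusted p = 0.0309) and without the trends (−0.21, adjusted p = 0.0206). Gla, the α-galactosidase lacking in Fabry disease, had lowest, median and highest values of 1.91, 2.56 and 3.21 FPKM in vutiglabridin, 1.71, 2.35 and 2.80 in semaglutide and 2.45, 2.83 and 3.73 in vehicle livers. Its log2 change was −0.23 ± 0.08 under semaglutide (adjusted p = 0.0355) and −0.12 ± 0.08 under vutiglabridin (adjusted p = 0.357), with 4 of 8 semaglutide livers below every vehicle liver. Man2b1, a lysosomal α-mannosidase, had lowest, median and highest values of 17.3, 20.6 and 24.02 FPKM in vutiglabridin, 16.6, 19.2 and 21.2 in semaglutide and 18.3, 21.7 and 25.1 in vehicle livers. The groups overlapped, and its log2 change was −0.18 ± 0.07 under semaglutide (adjusted p = 0.0483) and −0.09 ± 0.07 under vutiglabridin (adjusted p = 0.413). With equal totals the vutiglabridin changes of Gla (−0.24, adjusted p = 0.0409) and Man2b1 (−0.24, adjusted p = 0.0144) passed as well.

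All 3 of these semaglutide calls ended when any 1 of several libraries was left out. The Hexa call ended without semaglutide replicate 1, 4 or 8 or vehicle replicate 2 or 7 (adjusted p of 0.0501 to 0.0700). The Gla call ended without semaglutide replicate 3, 4, 7 or 8 or vehicle replicate 3, 5, 7 or 8 (adjusted p of 0.0518 to 0.0847). The Man2b1 call ended without semaglutide replicate 2, 3, 4, 6, 7 or 8 or vehicle replicate 1, 2, 3, 4, 7 or 8 (adjusted p of 0.0505 to 0.104), and also with no filter on low values (adjusted p = 0.0519) or after quantile normalization (adjusted p = 0.0509).

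Neu1 and Fuca1 passed between the drugs and, as the table stands, against vehicle in neither group. Neu1, a sialidase, had lowest, median and highest values of 13.4, 16.4 and 17.0 FPKM in vutiglabridin, 11.1, 13.7 and 15.8 in semaglutide and 13.4, 14.8 and 16.8 in vehicle livers. The difference of vutiglabridin from semaglutide was 0.24 ± 0.07 (adjusted p = 0.0140), and 5 of 8 vutiglabridin livers lay above every semaglutide liver. Against vehicle, Neu1 had a log2 change of 0.06 ± 0.07 under vutiglabridin (adjusted p = 0.620) and −0.18 ± 0.07 under semaglutide (adjusted p = 0.0594). The semaglutide value of Neu1 passed with equal library totals (−0.23, adjusted p = 0.0140) and after quantile normalization (−0.19, adjusted p = 0.0382). Fuca1, an α-fucosidase, had lowest, median and highest values of 28.2, 31.0 and 36.8 FPKM in vutiglabridin, 24.8, 25.8 and 33.0 in semaglutide and 26.4, 29.6 and 31.2 in vehicle livers. Its difference between the drugs was 0.22 ± 0.06 (adjusted p = 0.00790), although the ranges overlapped. Against vehicle, Fuca1 had a log2 change of 0.10 ± 0.06 under vutiglabridin (adjusted p = 0.270) and −0.12 ± 0.06 under semaglutide (adjusted p = 0.141), and the semaglutide value became −0.18 (adjusted p = 0.0143) with equal totals. Glb1, Manba and Naglu passed nowhere as the table stands. With equal totals Manba was lower under vutiglabridin (−0.24, adjusted p = 0.0177). Glb1 was lower in vutiglabridin than in semaglutide livers with equal totals (−0.21, adjusted p = 0.0400) and without GC and length trends (−0.20, adjusted p = 0.0230).

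None of the 4 sulfatases, Sgsh, Galns, Arsa and Arsb, passed in any comparison as the table stands. Their log2 changes lay between −0.19 and −0.12 under vutiglabridin and between −0.13 and 0.04 under semaglutide. With equal totals all 4 were lower under vutiglabridin (adjusted p of 0.0426 for Sgsh, 0.0168 for Galns, 0.00799 for Arsa, 0.00370 for Arsb). Quantile normalization also called Arsa lower under vutiglabridin (adjusted p = 0.0482), and equal totals called Arsb lower under semaglutide (adjusted p = 0.0445). In vutiglabridin against semaglutide, Galns and Arsa were lower with equal totals (adjusted p of 0.018 and 0.0194) and without GC and length trends (0.0145 and 0.0231). Arsa, which degrades sulfatide, was the most abundant, with medians of 28.4 FPKM in vutiglabridin, 34.2 in semaglutide and 33.0 in vehicle livers, and Sgsh, a heparan sulfatase, the least, with medians of 2.65, 2.40 and 2.90 FPKM in vutiglabridin, semaglutide and vehicle livers.

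Of the 4 genes of the proton pump, none passed under vutiglabridin as the table stands, and Atp6v1h and Atp6ap1 fell under semaglutide. Atp6v1h, the regulatory H subunit of the cytosolic sector, had lowest, median and highest values of 7.69, 8.61 and 9.53 FPKM in vutiglabridin, 6.89, 7.41 and 8.34 in semaglutide and 7.25, 8.36 and 9.10 in vehicle livers. Its log2 change was −0.14 ± 0.05 under semaglutide (adjusted p = 0.0350) and 0.04 ± 0.05 under vutiglabridin (adjusted p = 0.666), and vutiglabridin was higher than semaglutide by 0.18 ± 0.05 (adjusted p = 0.00945). The ranges of all groups overlapped. Atp6ap1, an accessory subunit, had lowest, median and highest values of 28.4, 32.0 and 36.6 FPKM in vutiglabridin, 28.2, 30.5 and 32.6 in semaglutide and 31.6, 33.0 and 35.6 in vehicle livers. Its log2 change was −0.14 ± 0.05 under semaglutide (adjusted p = 0.0458) and −0.07 ± 0.05 under vutiglabridin (adjusted p = 0.417), and −0.06 (adjusted p = 0.400) under semaglutide without the GC and length trends. Both semaglutide calls ended as libraries were left out: semaglutide replicate 2, 3, 6 or 7 or vehicle replicate 1, 2, 6 or 8 for Atp6v1h (adjusted p of 0.0503 to 0.0724), and semaglutide replicate 1, 2, 3, 4, 7 or 8 or vehicle replicate 1, 2, 3, 5, 6 or 7 for Atp6ap1 (adjusted p of 0.050006 to 0.0863).

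Atp6v1a, the catalytic A subunit, differed between the drugs in the opposite direction. Its lowest, median and highest values were 8.31, 10.7 and 11.8 FPKM in vutiglabridin, 11.8, 12.6 and 13.1 in semaglutide and 10.6, 11.6 and 13.8 in vehicle livers. In 7 of 8 vutiglabridin livers it was below every semaglutide liver, and the log2 difference was −0.23 ± 0.06 (adjusted p = 0.00398). Against vehicle it was −0.14 ± 0.06 under vutiglabridin (adjusted p = 0.0939) and 0.09 ± 0.06 under semaglutide (adjusted p = 0.245). Atp6v0d1, of the membrane sector, passed nowhere as the table stands, with medians of 49.6 FPKM in vutiglabridin, 47.5 in semaglutide and 50.1 in vehicle livers. With equal totals Atp6v1a (−0.29, adjusted p = 0.00368), Atp6ap1 (−0.22, adjusted p = 0.00875) and Atp6v0d1 (−0.14, adjusted p = 0.0297) were lower under vutiglabridin. The vutiglabridin change of Atp6v1a also passed without GC and length trends (−0.16, adjusted p = 0.0184).

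For members that did not pass, the intervals set how large a change could have gone unseen. Over the 35 such genes under vutiglabridin the 95% intervals reached from −0.40 to 0.25, and over the 26 under semaglutide from −0.33 to 0.38 on the log2 scale.

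Carriage of the CLEAR-like motif was set beside the calls as a description. Of the 12 genes with TCACGTG, 1 rose and 0 fell under vutiglabridin, and of the 23 without it 2 rose and 2 fell. Under semaglutide 1 of the 12 rose and 3 fell, and 1 of the 23 rose and 6 fell. The falls under semaglutide were 25% of the genes with the motif and 26.1% of those without it, beside 12.7% of all genes. Rises under semaglutide were 8.33% and 4.35%, beside 14.3% of all genes. Under vutiglabridin rises were 8.33% and 8.7%, beside 6.53% of all genes, and falls 0% and 8.7%, beside 8.78%. Between the drugs 2 of the 12 were higher and 2 lower in vutiglabridin livers (16.7% each). Of the 23, 2 were higher and 0 lower (8.7% and 0%), beside 11.9% and 12.6% of all genes. Gaa, with 1 box, rose under both drugs, while Lamp1, with 4, fell under semaglutide. Median log2 changes under vutiglabridin were −0.06 with the motif and −0.03 without it, and under semaglutide −0.09 and −0.07.

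The scaling of the libraries decided most of the vutiglabridin calls. Rescaling each library to the same total, as TPM does, moved the median of all genes to −0.11 for vutiglabridin, −0.06 for semaglutide and −0.07 between the drugs. The calls of the set then became 0 higher and 21 lower under vutiglabridin, 2 higher and 16 lower under semaglutide, and 1 higher and 11 lower between the drugs. Over all genes the equal totals called 2.02% higher and 23.6% lower under vutiglabridin, 10.6% and 18.8% under semaglutide, and 5.09% and 19.6% between the drugs, where the set had 0% and 51.2%, 4.88% and 39.0%, and 2.44% and 26.8%. Quantile normalization gave 1 higher and 9 lower, 4 higher and 12 lower, and 3 higher and 7 lower in the same order, with 4.65% and 7.33%, 15.6% and 13.1%, and 10.4% and 11.6% of all genes. Removal of GC and length trends gave 4 higher and 5 lower, 6 higher and 8 lower, and 6 higher and 6 lower, with 8.81% and 9.83%, 14.0% and 14.2%, and 13.1% and 11.7% of all genes. Under the equal totals the vutiglabridin rises of Gaa (0.12, adjusted p = 0.183), Lamp2 (0.09, adjusted p = 0.345) and Ctsl (0.10, adjusted p = 0.304) no longer passed, and Ctsh turned to −0.02 (adjusted p = 0.793). Relative to the median of all genes, the equal totals left Gaa at 0.23, Lamp2 at 0.19, Ctsl at 0.21, Ctsh at 0.09, Psap at −0.32 and Gusb at −0.26, against 0.26, 0.23, 0.25, 0.13, −0.29 and −0.23 as the table stands.

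Under semaglutide the equal totals ended the calls of Scarb2 (0.14, adjusted p = 0.0502) and Ctsh (0.11, adjusted p = 0.0606), and between the drugs those of Mcoln1 (0.14, adjusted p = 0.141), Neu1 (0.14, adjusted p = 0.130), Fuca1 (0.13, adjusted p = 0.0825) and Atp6v1h (0.09, adjusted p = 0.220). Lamp2 and Ctsl were not called under vutiglabridin after quantile normalization either (0.11, adjusted p = 0.329, and 0.09, adjusted p = 0.439), nor was Ctsh (0.02, adjusted p = 0.790), and the same step ended the call of Fuca1 between the drugs (0.14, adjusted p = 0.0526). The calls that passed under every alternative were Psap under vutiglabridin, Lamp1, Npc1, Lipa, Psap and Gaa under semaglutide, and Gaa and Atp6v1a between the drugs.

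**Figure D4:**
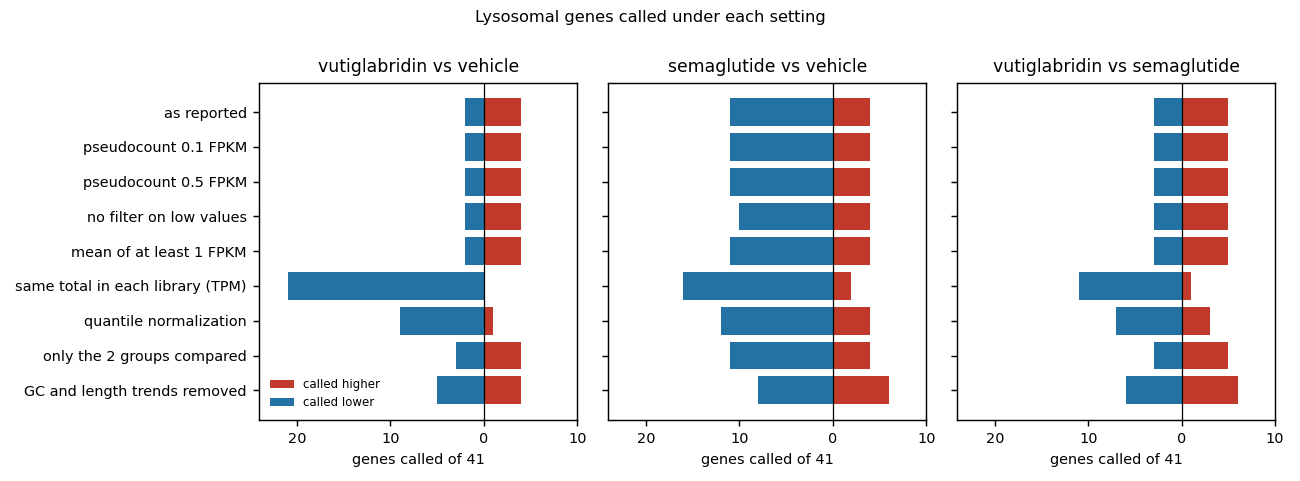
Number of the 41 lysosomal genes called higher (right of 0) and lower (left of 0) in each comparison under each setting. Under vutiglabridin the split is 4 higher and 2 lower as reported and 0 higher and 21 lower with equal library totals, while semaglutide has more genes lower than higher in each of the 9 settings drawn. Fits with the replicate block or without a library are not drawn, and without semaglutide replicate 3 or 8 semaglutide had 5 genes higher and 5 lower.

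Other genes of the same pathway were counted from lists chosen with earlier results of these data known. Of 28 tested genes of TFEB control (related factors, mTORC1 and its lysosomal anchors, calcineurin and AMPK), 0 passed under vutiglabridin, and 5 rose (17.9%) and 2 fell (7.14%) under semaglutide, beside 14.3% and 12.7% of all genes. Fnip1, a partner of the RagC/D activator folliculin, averaged 6.13 ± 1.37 FPKM in vutiglabridin, 9.82 ± 1.12 in semaglutide and 5.52 ± 0.734 in vehicle livers (SD, n = 8 each), with a semaglutide change of 0.73 ± 0.10 (adjusted p = 4.76e-06). Prkaa2, a catalytic subunit of AMPK, rose by 0.65 ± 0.10 under semaglutide (adjusted p = 2.60e-05) and Fnip2 by 0.46 ± 0.09 (adjusted p = 0.000511), while Mlst8, a subunit of mTORC1, fell by 0.40 ± 0.07 (adjusted p = 0.000103). Between the drugs 2 were higher (7.14%) and 5 lower (17.9%) in vutiglabridin livers, beside 11.9% and 12.6% of all genes.

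Among 34 other lysosomal hydrolases, 2 rose and 6 fell under vutiglabridin and 3 rose and 8 fell under semaglutide, with median log2 changes of −0.03 and −0.10, beside 0.01 and −0.01 for all genes. These are 5.88% and 17.6% under vutiglabridin (6.53% and 8.78% of all genes) and 8.82% and 23.5% under semaglutide (14.3% and 12.7% of all genes). Ctss, a cathepsin of antigen-presenting cells, averaged 60.0 ± 14.4 FPKM in vutiglabridin, 69.4 ± 11.1 in semaglutide and 103 ± 18.6 in vehicle livers, a log2 change of −0.78 ± 0.13 under vutiglabridin (adjusted p = 0.000325) and −0.55 ± 0.13 under semaglutide (adjusted p = 0.00272). Gm2a, the activator of ganglioside breakdown, rose under both drugs, by 0.25 ± 0.06 (adjusted p = 0.00439) under vutiglabridin and by 0.30 ± 0.06 (adjusted p = 0.000413) under semaglutide. Of 32 other membrane proteins, 3 rose (9.38%) and 5 fell (15.6%) under vutiglabridin and 2 rose (6.25%) and 8 fell (25%) under semaglutide. Cd63, a tetraspanin of late endosomes, averaged 8.21 ± 2.53 FPKM in vutiglabridin, 11.1 ± 3.33 in semaglutide and 17.1 ± 4.05 in vehicle livers, a change of −0.99 ± 0.18 under vutiglabridin (adjusted p = 0.000520) and −0.61 ± 0.18 under semaglutide (adjusted p = 0.0122). Cd68, a macrophage glycoprotein, fell under semaglutide by 0.65 ± 0.16 (adjusted p = 0.00373).

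Of 20 other V-ATPase genes, 0 rose and 3 fell (15%) under vutiglabridin and 2 rose (10%) and 4 fell (20%) under semaglutide, against 6.53% and 8.78% of all genes under vutiglabridin and 14.3% and 12.7% under semaglutide. Dmxl1 and Dmxl2, of the complex that assembles the pump, rose under semaglutide by 0.47 ± 0.06 (adjusted p = 7.37e-06) and 0.38 ± 0.07 (adjusted p = 0.000241). Tcirg1, an a subunit of the pump, fell under vutiglabridin by 0.23 ± 0.08 (adjusted p = 0.0498) and under semaglutide by 0.40 ± 0.08 (adjusted p = 0.000648). Of 21 genes that sort or mature lysosomal enzymes, 0 rose and 3 fell (14.3%) under vutiglabridin and 1 rose (4.76%) and 8 fell (38.1%) under semaglutide, beside the same shares of all genes. Cstb, an inhibitor of cysteine cathepsins, averaged 82.5 ± 10.4 FPKM in vutiglabridin, 75.5 ± 15.2 in semaglutide and 109 ± 11.5 in vehicle livers, and fell under vutiglabridin (adjusted p = 0.00614) and semaglutide (adjusted p = 0.000191). Lrp1, an endocytic receptor, was the one gene of that list to rise under semaglutide, by 0.48 ± 0.09 (adjusted p = 0.000219).

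Markers of liver cell types were given beside these results, since macrophages carry many of the hydrolases. The background for these counts was 6.53% of all genes higher and 8.78% lower under vutiglabridin, and 14.3% and 12.7% under semaglutide. Of 11 tested markers of recruited and lipid-associated macrophages, 11 fell under vutiglabridin and 8 under semaglutide, and none rose. Their summed level ran from 180 to 406 FPKM (median 314) in vutiglabridin, from 259 to 493 (median 421) in semaglutide and from 394 to 722 (median 498) in vehicle livers. Of 9 tested Kupffer cell markers 1 rose and 2 fell under vutiglabridin and 0 rose and 2 fell under semaglutide. Their sum ran from 185 to 335 FPKM in vutiglabridin, from 133 to 213 in semaglutide and from 171 to 429 in vehicle livers. Hepatocyte markers rose in 4 of 12 under vutiglabridin and in 5 of 12 under semaglutide, and none fell. Their sum ran from 38368 to 53406 FPKM in vutiglabridin, from 38149 to 50116 in semaglutide and from 34314 to 42718 in vehicle livers. No marker of these 3 lists was at 0 in every liver of a group. Stellate cell markers fell in 2 of 10 under vutiglabridin and in 4 of 10 under semaglutide, with sums of 120 to 178, 114 to 155 and 150 to 241 FPKM in vutiglabridin, semaglutide and vehicle livers. The sums of recruited macrophage markers had lower medians in both drug groups than in vehicle livers, and those of hepatocyte markers higher ones. None of these sums was rescaled to equal library totals. The summed FPKM of all genes averaged 368614 in vutiglabridin, 343428 in semaglutide and 330352 in vehicle libraries. The Kupffer sums had medians of 239 FPKM in vutiglabridin, 175 in semaglutide and 211 in vehicle livers. Their part in the lysosomal results was not tested.

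**Figure D5:**
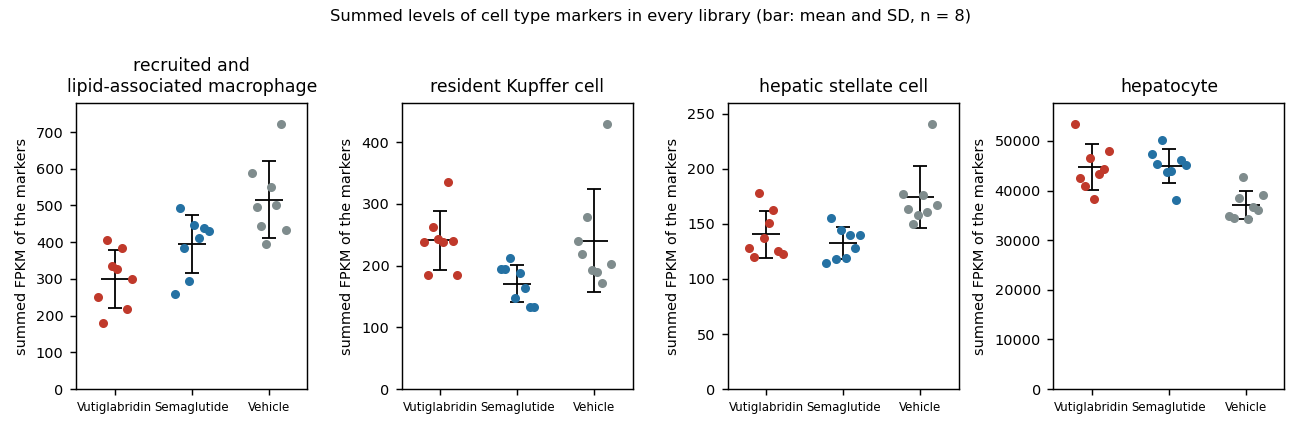
Summed FPKM of the markers of 4 liver cell types in each of the 24 livers, by group; points are livers and bars are the mean and SD (n = 8). Recruited macrophage markers sum to 180 to 406 FPKM in vutiglabridin, 259 to 493 in semaglutide and 394 to 722 in vehicle livers. Hepatocyte markers are shifted upward in both drug groups, in sums not rescaled to equal library totals.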

How the data were processed

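RNA from 24 livers was converted to stranded mRNA libraries (TruSeq) and sequenced as paired ends on a NovaSeq instrument, per the labels' protocols. The deposited table holds FPKM made by the authors, 1 value per gene and sample. The submitters' processing notes list HISAT2, StringTie and DESeq2 among the authors' tools. No tool's version or role and no genome build is given in the sources used here. All 14293 gene identifiers occur in GENCODE M21 (GRCm38), which supplied gene positions, exon lengths and GC content.

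Values were analysed as log2(FPKM + 1), and changes are on that scale, which understates those of low genes. A gene was kept if 8 or more samples reached 0.5 FPKM (11562 genes). FPKM are not counts, so no count model was used. The 3 group means were fitted to all 24 samples at once in limma 3.58.1 under R 4.3.3, with no covariate. Its 2-sided moderated tests used a mean-variance trend, and Benjamini-Hochberg adjustment ran over all genes of each comparison (threshold 0.05). The fitting code was tested on simulated data. Intervals are 95%. Depth per library was read from the steps that 1 fragment makes in low FPKM values of genes with exon lengths up to 3000 bases, and is approximate.

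Every member may be named, and those that passed at least once as the table stands, with Tfeb and Tfe3, are given in full. Up to 4 called genes with the lowest p were eligible per pathway list, and those printed were picked from these after their values were seen. The members, the lists and the markers were chosen with earlier results of these data known. Alternatives were pseudocounts of 0.1 and 0.5, no filter, a filter on the mean (1 FPKM), equal library totals (each library scaled to the mean total, with the pseudocount and gene set kept), quantile normalization, a fit of only the groups being compared, replicate number entered as a block, removal of each library's trends with GC content and exon length (5 df splines, without and with the block), and each library left out in turn. Replicate numbers were not treated as pairs. RefSeq promoters were matched by symbol.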

Additional observations from a re-analysis of the deposited data

Results flagged for a closer look

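In 6 of 123 combinations of gene and group, a single liver stood apart from the other 7 by more than Dixon's 95% critical value, and chance flags about 1 in 20 groups. Tfe3 was 4.16 FPKM in semaglutide replicate 7 and Asah1 was 19.93 FPKM in semaglutide replicate 2. Ctsc was 23.62 FPKM in vutiglabridin replicate 7, the shallowest library, and Atp6v0d1 was 59.67 FPKM in vutiglabridin replicate 4. Ctsz was 272.12 FPKM in semaglutide replicate 5 and Gla was 3.73 FPKM in vehicle replicate 7. Each of these values was the highest of its group. Of the 6 genes only Gla passed in a comparison as the table stands. The semaglutide call of Gla ended without vehicle replicate 7 (adjusted p = 0.0847).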

How the results depend on the processing

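The counts of called genes kept within 1.5 times the reported ones under both other pseudocounts, without a filter, with the filter on the mean and with only the compared groups fitted. With equal library totals they were 0 higher and 21 lower under vutiglabridin, 2 higher under semaglutide, and 1 higher and 11 lower between the drugs. Quantile normalization gave 1 higher and 9 lower under vutiglabridin and 3 higher and 7 lower between the drugs. Without GC and length trends 5 were lower under vutiglabridin and 6 lower between the drugs. The only passing values that turned sign were Ctsh (−0.018) and Atp6v0d1 (−0.14), both under vutiglabridin with equal totals, where Atp6v0d1 passed (adjusted p = 0.0297). A further 145 of 3198 values changed sign without passing in either fit. The causes were not tested.

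With each library left out in turn, vutiglabridin had 3 to 4 genes higher and 1 to 3 lower, semaglutide 4 to 5 higher and 5 to 13 lower, and the comparison of the drugs 5 to 6 higher and 3 to 4 lower. Over all 11562 genes the same fits called 531 to 877 higher and 755 to 1148 lower under vutiglabridin. Under semaglutide they called 1462 to 1702 higher and 1217 to 1577 lower. Between the drugs they called 1146 to 1622 higher and 1263 to 1532 lower. The replicate number as a block gave 3 higher and 1 lower under vutiglabridin, 5 higher and 8 lower under semaglutide, and 5 higher and 4 lower between the drugs. Over all genes it called 6.31% higher and 8.59% lower, 14.1% and 12.5%, and 11.6% and 12.1% in the same order. The block ended the vutiglabridin calls of Ctsh (adjusted p = 0.0579) and Gusb (0.0596) and the semaglutide calls of Gla (0.0502), Man2b1 (0.0628) and Atp6v1h (0.0527). With the block and without GC and length trends, 7 were lower under semaglutide and 6 lower between the drugs, beside 14% and 11.7% of all genes. Same-numbered samples correlated by −0.12 to 0.28 (vutiglabridin and vehicle), −0.25 to 0.25 (semaglutide and vehicle) and −0.20 to 0.29 (both drugs), and 2, 1 and 1 of 8 correlated best with their own number, so the numbers were not taken as pairs.

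The shallow libraries limit low genes such as Tfeb, Gla and Sgsh most, and no counts were available to give their counting error.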
